A study of Drosophila melanogaster with 6 samples.

Results

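The genes described here encode the proteasome of Drosophila melanogaster and the related copies of its subunits that are named as variants. They were chosen by symbol: genes whose current symbol starts with Prosalpha or Prosbeta (the core particle), or with Rpt or Rpn and a digit (the regulatory particle, or cap). Symbols that end in a T or R suffix were kept apart as germline variants. Of 48 such genes in the RefSeq gene table, 39 had a probe set annotated to 1 gene, out of 10843 genes on the array. These were 12 core genes, 14 cap genes and 13 variants. Prosalpha1 and Prosalpha1R share 1 probe set, and the 7 genes Prosbeta1, Rpn9, Rpn10, Rpt1, Rpt6, Prosbeta5R2 and Rpt6R were not analysed here. The rule uses symbols and no measured value, but the family was chosen with earlier results of these data known. No filter on low signals was applied to the genes.

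RNA of larvae in the third instar was measured on 6 Affymetrix arrays. The control group was 3 arrays of wild type larvae of the strain that the labels spell cancon S, and the other group was 3 arrays of larvae homozygous for a maleless mutation (mle/mle). The gene maleless encodes an RNA helicase of the complex that raises transcription of the male X chromosome, and the labels do not name the mutant allele. The mle/mle larvae were male and were separated by the Tb marker from mle/T(2-3)Tb heterozygotes, which were not analysed here. The sex of the wild type larvae and the number of larvae per array are not given, so sex, strain background and mle genotype cannot be told apart. The titles call the arrays of a group biological replicates without saying what was separate, so p-values measure the spread between these samples, whatever its source. The comparison of the groups asks how expression differs in larvae without normal maleless.

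The proteasome degrades proteins that carry ubiquitin chains. Its core particle is a barrel of stacked rings, with alpha subunits in the outer rings that gate the entrance and beta subunits in the inner rings, of which Prosbeta1, Prosbeta2 and Prosbeta5 cut peptide bonds. The cap recognises ubiquitin, removes it and unfolds the substrate: the Rpt subunits form a ring of ATPases, and the Rpn subunits hold ubiquitin receptors, a deubiquitinase and scaffolds. In Drosophila several subunits have extra gene copies that are expressed in the male germline, and Prosalpha6T is required for sperm development.

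Signals are log2 values per probe set, summarised by the authors with RMA. They are read here between arrays for 1 probe set at a time, since the brightness of different probe sets does not rank genes by RNA amount. The exception is the sums over marker lists below. They too are compared between arrays only, and the brightest probe sets weigh most in them. Pairs of arrays correlated at 0.987 to 0.997, and replicates of a probe set had a typical SD of 0.11 (median). The arrays numbered 2 differed from the other arrays of their groups in testis markers and in the genes described here, so results are given with and without that pair. Of 19 listed testis and spermatocyte markers 18 were measured, none of them passed the test between groups, and their summed linear signal ran from 7666 to 12639 for wild type arrays and from 5740 to 12231 for mle/mle arrays, lowest on the array numbered 2 of each group. The defining markers can and nht were dim, under the lower quartile of all 6 arrays. The 8 ovary markers summed to 908 to 1068 for wild type arrays and 941 to 1073 for mle/mle arrays, and the 4 measured markers of early germ cells to 182 to 202 and 187 to 196. The 6 measured salivary gland and fat body markers of late larvae (Sgs genes and Lsp2) summed to 66093 to 70888 in wild type and 57668 to 65561 in mle/mle, ranges that did not overlap. The 5 Sgs genes of the salivary gland had negative changes, while Lsp2 of the fat body had a positive one of 0.07, higher in mle/mle in all 3 pairs (adjusted p by limma 0.9997). None of these 6 markers passed the test between groups with all arrays, where the smallest adjusted p by limma was 0.32. Whole larvae were used, so fewer cells of a type and less RNA per cell cannot be told apart.

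None of the 39 proteasome genes passed the test between mle/mle and wild type larvae. By limma, 0 of them had an adjusted p under 0.05 (0.0573% of all probe sets did) and 0 had an unadjusted p under 0.05 (4.32% of all probe sets did). The differences were small, and their sign depended on single arrays. On the log2 scale the fitted change was negative in 25 of 26 core and cap genes, with a median of -0.05 and a range of -0.17 to 0.07, beside a median of 0.01 and 46.4% negative over all genes. Of the 26, 13 were negative without wild type replicate 3 (median -0.001), 15 without mle/mle replicate 1 or without mle/mle replicate 3, 19 without wild type replicate 1, and 26 without either array numbered 2. With all arrays the change was negative in 10 of 13 germline variants, with a median of -0.07 and a range of -0.21 to 0.10. The adjusted p by limma was 0.9997 for each of the 39 genes. Standard errors ran from 0.09 to 0.17 for the core and cap genes, so a change of this size could not be separated from the spread between arrays. Values of the groups did not overlap in 1 of the 39 genes, the variant Rpt4R, against 8.36% of all probe sets.

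**Figure D1:**
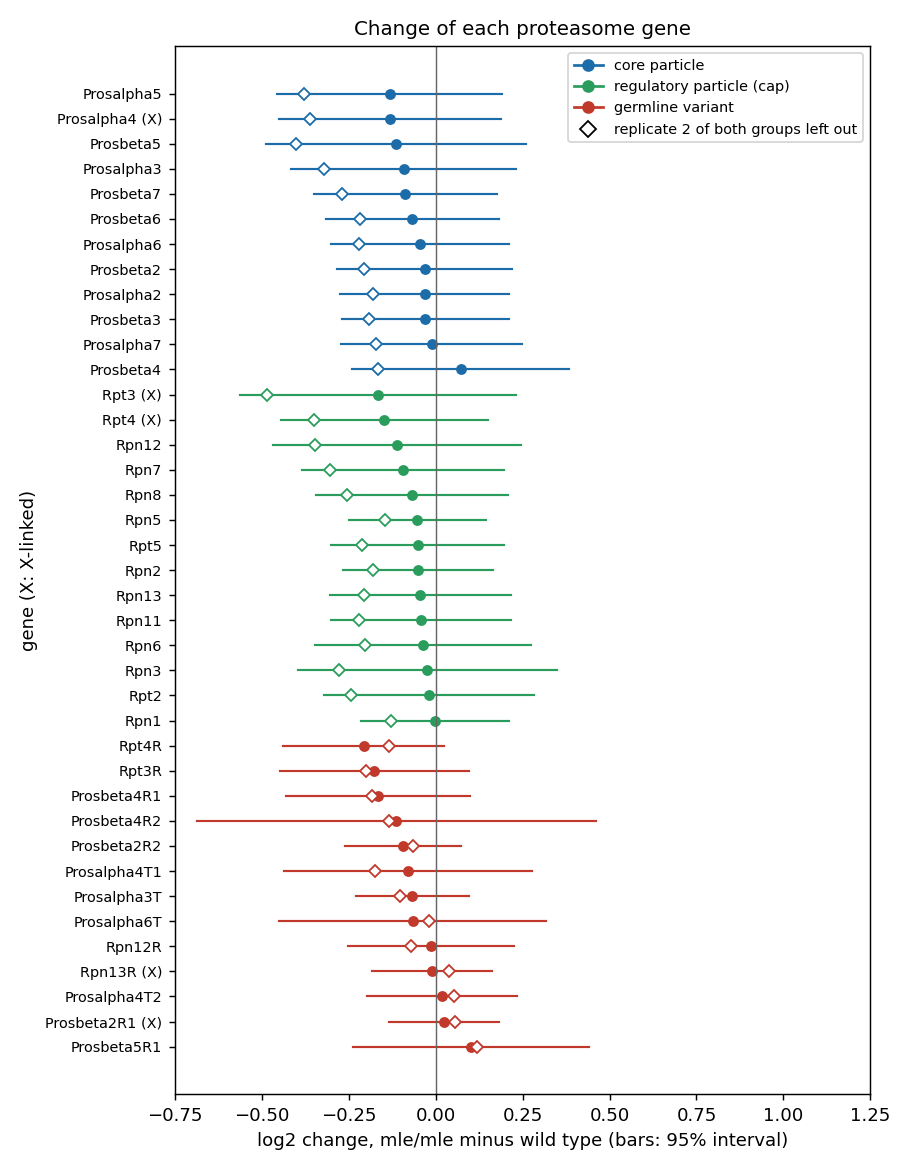
Fitted log2 change of each of 39 proteasome genes (x axis, mle/mle minus wild type) by gene (y axis). Filled points with bars are the changes over 6 arrays with 95% intervals, which all include 0, and open diamonds are the changes without the arrays numbered 2, which lie below 0 for all 26 core and cap genes.

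Of the alpha ring, 6 subunits were measured, and all 6 changes were negative with all arrays and at least 4 of 6 without any 1 array, with a median of -0.07. Prosalpha5 read 9.68, 9.27 and 9.73 on wild type arrays 1, 2 and 3, and 9.31, 9.63 and 9.34 on mle/mle arrays. Its wild type array numbered 2 lay below every mle/mle array, while the other wild type arrays lay above every one of them. The means were 9.56 ± 0.25 and 9.43 ± 0.18 (SD, n = 3 each), a log2 change of -0.13 with a 95% interval of -0.46 to 0.19 (limma adjusted p = 0.9997).

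Prosalpha2 had the highest mean signal among the core and cap probe sets, 11.66, 11.51 and 11.60 on wild type arrays and 11.46, 11.78 and 11.44 on mle/mle arrays. The highest and the lowest of these values both came from mle/mle, and the change was -0.03 (95% interval -0.27 to 0.21). The alpha subunits Prosalpha3, Prosalpha6 and Prosalpha7 changed by -0.09, -0.05 and -0.01, each with an interval that included 0.

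The beta ring had 6 measured subunits, 5 with a negative change (2 without wild type replicate 3) and a median of -0.05. Prosbeta5, the subunit with chymotrypsin-like activity, read 10.98, 10.51 and 11.07 on wild type arrays and 10.55, 10.97 and 10.70 on mle/mle arrays. The wild type values alone spread further than the group means differ, and the log2 change was -0.11 (95% interval -0.49 to 0.26). Prosbeta2, with trypsin-like activity, changed by -0.03. Prosbeta7, a structural subunit, read 10.57, 10.21 and 10.57 on wild type arrays and 10.29, 10.49 and 10.32 on mle/mle arrays, a change of -0.09 (95% interval -0.35 to 0.18). Its mle/mle array numbered 2 lay between the low and the high wild type arrays. Prosbeta3 and Prosbeta6 changed by -0.03 and -0.07.

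Prosbeta4 was the 1 core or cap gene with a positive change. It read 11.12, 10.82 and 11.19 on wild type arrays and 11.001, 11.36 and 10.97 on mle/mle arrays, so that the array numbered 2 was lowest in one group and highest in the other. The change was 0.07 (95% interval -0.24 to 0.38), and it was -0.17 without the arrays numbered 2 and -0.01 after quantile normalization.

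Among the ATPases of the cap, Rpt2, Rpt3, Rpt4 and Rpt5 were measured, with a median change of -0.10. All 4 changes were negative with all arrays, and 2 of 4 without mle/mle replicate 1 or without mle/mle replicate 3. Rpt3 read 9.25, 8.80 and 9.33 on wild type arrays and 8.76, 9.26 and 8.85 on mle/mle arrays. Its change of -0.17 (SE 0.17, 95% interval -0.56 to 0.23) was the most negative of the 26 core and cap genes and equals 0.891 times the wild type signal. Rpt4 read 9.23, 9.04 and 9.43 on wild type arrays and 8.91, 9.29 and 9.04 on mle/mle arrays, a change of -0.15 (SE 0.13, 95% interval -0.45 to 0.15) and the smallest p of the core and cap genes (unadjusted p = 0.28, adjusted p = 0.9997 by limma). In both genes the groups overlapped through the arrays numbered 2. Rpt2 and Rpt5 changed by -0.02 and -0.05.

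With all arrays the 10 measured Rpn subunits had a negative change, from -0.11 to -0.001, with a median of -0.05. The negative ones were 6 of 10 in a second deposited summary of the arrays, the PLIER table, and 4 of 10 without wild type replicate 3 or without mle/mle replicate 1. Rpn12, a subunit of the lid of the cap, changed by -0.11 (95% interval -0.47 to 0.24), and the lid subunits Rpn7 and Rpn8 by -0.09 and -0.07. Rpn11, the deubiquitinase that releases ubiquitin chains from substrates, changed by -0.04 (95% interval -0.30 to 0.22). Rpn13, a ubiquitin receptor, likewise changed by -0.04. The scaffold subunits Rpn1 and Rpn2 changed by -0.001 and -0.05, and Rpn3, Rpn5 and Rpn6, also of the lid, by -0.02, -0.05 and -0.04. None of these intervals excluded 0, and a change of up to -0.25 at Rpn5 or -0.47 at Rpn12 lay inside them.

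The group means hide a pattern between arrays that the core and cap genes shared. In wild type, the array numbered 2 had the lowest signal of the 3 arrays for 26 of 26 core and cap genes, against 41.6% of all genes. In mle/mle, the array numbered 2 had the highest signal for 26 of 26, against 47.5% of all genes. Both held together for 26 of 26, against 16.4% of all genes. The wild type array numbered 2 lay below the mean of the other wild type arrays by a median of -0.31 on the log2 scale (range -0.52 to -0.06), and the mle/mle array numbered 2 lay above the mean of the others by a median of 0.28 (range 0.15 to 0.46). Over all genes these medians were -0.01 and 0.04. These shares describe 6 arrays and 26 genes that vary together, and they carry no test.

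**Figure D2:**
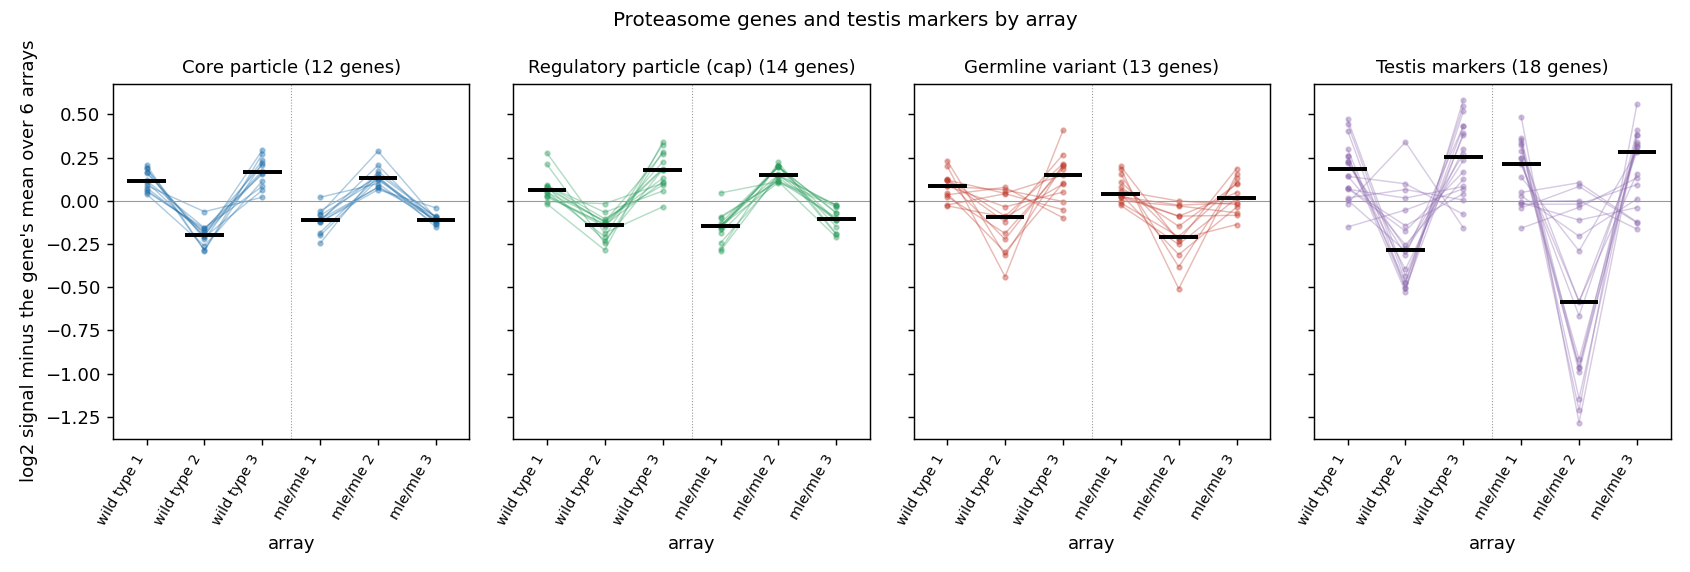
Log2 signal of each gene minus its mean over the 6 arrays (y axis) by array (x axis), for 12 core genes, 14 cap genes, 13 germline variants and 18 testis markers. Thin lines are genes and black bars are medians. Core and cap genes are low on wild type array 2 and high on mle/mle array 2, while most variants and testis markers are low on both.

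The same values, taken as differences between arrays of the same number, ran in opposite directions. In pair 1 all 26 core and cap genes were lower in mle/mle, with a median difference of -0.21 (range -0.49 to -0.09). In pair 3 all 26 were lower, with a median of -0.25 (range -0.48 to -0.12). In pair 2 all 26 were higher, with a median of 0.31 (range 0.13 to 0.55). For all genes the medians were 0.01, -0.02 and 0.02 in pairs 1, 3 and 2. Rpt3 differed by -0.49, 0.47 and -0.48 in pairs 1, 2 and 3. Prosbeta5 differed by -0.43, 0.46 and -0.37, and Prosalpha5 by -0.37, 0.36 and -0.39. Rpn5 had the smallest spread of these differences, at -0.09, 0.13 and -0.20. The salivary gland genes Sgs4, Sgs5 and Sgs8, which mark late larvae, also differed more in pairs 1 and 3 than in pair 2: Sgs8 by -0.66, -0.14 and -0.68 in pairs 1, 2 and 3. Of the 6 measured late larval markers, 0 passed the test with all arrays (smallest adjusted p by limma 0.32, for Sgs8). When the arrays numbered 2 were left out, 3 passed, lower in mle/mle, against 3.24% of all probe sets in either direction. That setting was chosen with earlier results of these data known. The part of these markers in the proteasome result was not tested.

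**Figure D3:**
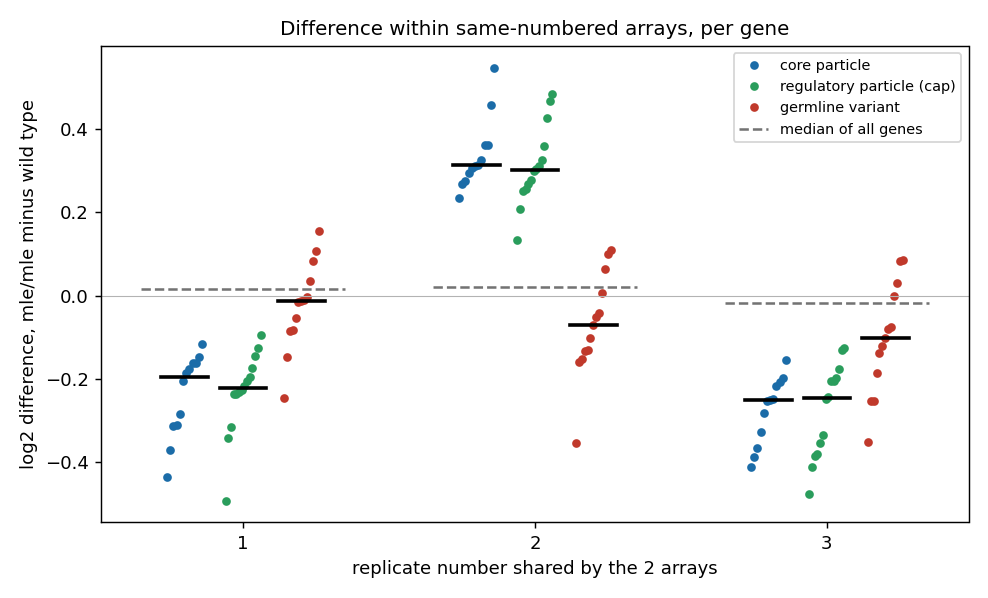
Log2 difference between the mle/mle and the wild type array of the same replicate number (y axis) for each number (x axis). Points are genes in order of their value, black bars are class medians and dashed lines are medians of all genes. All 26 core and cap genes lie below 0 in pairs 1 and 3 and above 0 in pair 2.

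Leaving out the arrays numbered 2 was a choice made with earlier results of these data known. It left 2 arrays in each group. By limma, 3 of the 39 genes then had an adjusted p under 0.05, all lower in mle/mle (3.24% of all probe sets did, in either direction). Rpt3 was lower by a log2 change of -0.48 (SE 0.08, limma adjusted p = 0.013), which is lower in both remaining pairs. Prosalpha5 was lower by -0.38 (SE 0.07, limma adjusted p = 0.031) and Prosbeta5 by -0.40 (SE 0.08, limma adjusted p = 0.041). Of the 26 core and cap genes 20 had an unadjusted p under 0.05, all lower, against 6.37% of all probe sets lower at that level. The changes of all 26 were negative, from -0.48 to -0.13, with a median of -0.22 beside 0.0006 over all genes. These values hold for the 4 arrays left, and pair 2 ran the other way in each of the 26 genes. The arrays numbered 2 were set apart partly for how these same genes read on them. The choice thus fixed the signs in advance, and the p-values without these arrays carry no support for a difference.

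The deposited PLIER table, a second summary of the same arrays, gave 0 of 39 genes with an adjusted p under 0.05 and 0 with an unadjusted p under 0.05 by limma. The median change of the core and cap genes was -0.06 there, with 21 of 26 negative. Its column names carry an array code, and the direction differed between codes. In the code of 4 arrays, 2 of each group, the median was 0.05 with 5 of 26 negative. In the code of 2 arrays, 1 of each group, it was -0.30 with 26 of 26 negative. The direction of the core and cap genes thus did not hold within both codes. These are the same arrays as in the pairs above, where pair 2 ran opposite to the others in 26 of 26 genes. The codes are therefore not a separate source on direction. Their columns carry no replicate number, so codes were not matched to pairs, and the difference between codes was not tested.

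The germline variants differed from the core and cap genes in how they varied between arrays. Their array medians, centred on each gene's mean, were 0.09, -0.10 and 0.15 in wild type replicates 1 to 3 and 0.04, -0.21 and 0.01 in mle/mle. The array numbered 2 was the lowest of its group in 10 of 13 variants in wild type (41.6% of all genes) and in 11 of 13 in mle/mle (31.8%). It was the lowest in both groups for 9 of 13, beside 0 of 26 core and cap genes and 17.4% of all genes. It was the highest in mle/mle for 0 of 13, against 47.5% of all genes. Signals were modest: 0 of 13 variants lay above the upper quartile of signals (7.91 to 7.96) on all arrays, where all 26 core and cap probe sets did, and 5 of 13 would pass a filter on the dimmest 40% of probe sets. Folds of dim probe sets are understated by RMA, and no detection calls were used here.

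Prosbeta4R2 had the largest offset among the variants, and it was picked for that value. It read 6.20, 5.56 and 6.41 on wild type arrays and 6.18, 5.49 and 6.15 on mle/mle arrays. The arrays numbered 2 lay below the means of the others by -0.74 and -0.68, and the other arrays of the groups lay close together. Its group difference was -0.11 (SE 0.25, 95% interval -0.69 to 0.46). Prosalpha6T, the copy needed for sperm development, read 7.02, 6.68 and 7.11 on wild type arrays and 7.06, 6.52 and 7.04 on mle/mle arrays, with offsets of -0.38 and -0.52 and a group difference of -0.07. The offsets were -0.53 and -0.25 for Prosalpha4T1 and -0.37 and -0.43 for Prosbeta5R1.

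Most testis markers showed the same low arrays, with larger median offsets. The array numbered 2 was the lowest of its group in 14 of 18 markers in wild type and 13 of 18 in mle/mle. Over all genes these shares were 41.6% and 31.8%. The markers had median offsets of -0.47 and -0.82, against -0.26 and -0.24 for the variants. The sperm tail gene dj read 8.58, 7.67 and 8.49 on wild type arrays and 8.60, 6.83 and 8.49 on mle/mle arrays. The testis tubulin gene betaTub85D read 8.94, 8.03 and 8.93 on wild type arrays and 8.85, 7.35 and 8.88 on mle/mle arrays. Both genes were close between groups on the arrays numbered 1 and 3. Offsets were negative for 15 of 18 markers in each group, against 52.0% of all genes in wild type and 40.9% in mle/mle. Several spermatocyte markers were exceptions. The spermatocyte regulator aly was highest on wild type array 2, with offsets of 0.43 in wild type and 0.09 in mle/mle. In the same order the offsets were 0.05 and 0.17 for nht, 0.07 and -0.09 for sa, and -0.20 and 0.14 for can. Whether the amount of testis RNA accounts for the values of the variants was not tested.

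**Figure D4:**
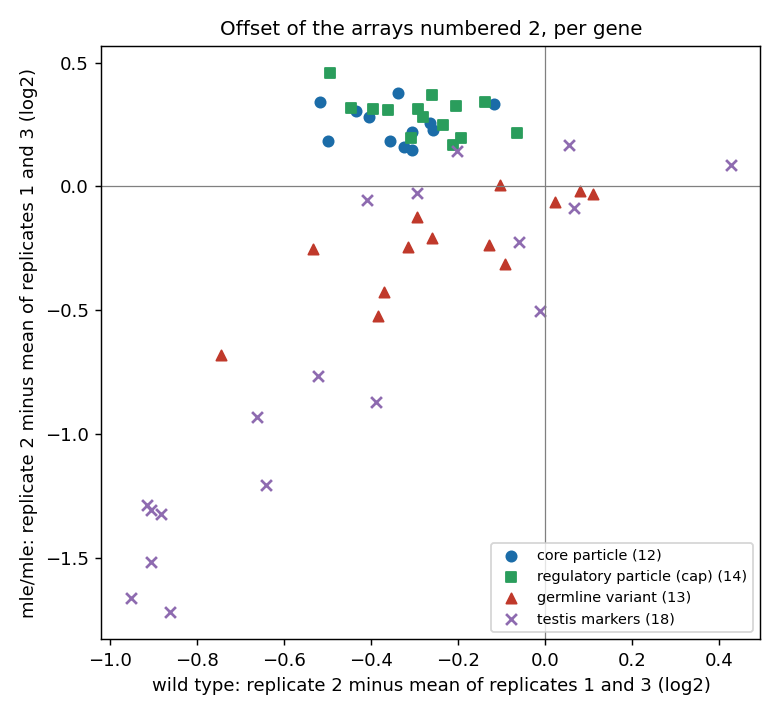
Offset of the array numbered 2 from the mean of the arrays numbered 1 and 3, on the log2 scale, in wild type (x axis) and in mle/mle (y axis). Each point is a gene. The 26 core and cap genes lie at negative x and positive y, and most of the 13 variants and 18 testis markers lie at negative x and negative y.

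Not every variant followed this course. Rpn13R, Prosbeta2R1 and Prosbeta2R2 had offsets of 0.11, 0.08 and 0.02 on wild type arrays and -0.03, -0.02 and -0.06 on mle/mle arrays. Prosbeta2R1 read 6.31, 6.37 and 6.28 on wild type arrays and 6.39, 6.33 and 6.31 on mle/mle arrays, close together on all 6 arrays. Prosbeta2R2 read 7.48, 7.46 and 7.39 on wild type arrays and 7.43, 7.31 and 7.31 on mle/mle arrays, a change of -0.09 (95% interval -0.26 to 0.07). Prosalpha3T was dim, under the lower quartile of all 6 arrays, so its change of -0.07 says little about the transcript.

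Between the groups, Rpt4R had the most negative change of the variants. It read 7.06, 6.99 and 7.09 on wild type arrays and 6.98, 6.63 and 6.91 on mle/mle arrays, with the highest mle/mle array just below the lowest wild type array. The means were 7.05 ± 0.05 and 6.84 ± 0.18 (SD, n = 3 each), a log2 change of -0.21 (SE 0.10, 95% interval -0.44 to 0.03) that did not pass the test (limma unadjusted p = 0.074, adjusted p = 0.9997). Rpt3R read 6.69, 6.45 and 6.84 on wild type arrays and 6.54, 6.32 and 6.58 on mle/mle arrays, a change of -0.18 (SE 0.12, limma unadjusted p = 0.17). With the replicate number as a block, these were 2 of 39 genes with an unadjusted p under 0.05, both lower (2.64% of all probe sets were lower at that level). Their unadjusted p by limma was 0.033 and 0.034 and their adjusted p 0.64 for both. Each was lower in mle/mle in all 3 pairs, but so were the variants Prosbeta2R2, Prosbeta4R1 and Prosbeta4R2 of the beta ring. Rpt4R and Rpt3R are related copies of ATPases of the cap.

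Prosalpha4T2 had the highest mean signal of the variants, 7.75, 7.68 and 7.87 on wild type arrays and 7.85, 7.63 and 7.87 on mle/mle arrays, and the groups overlapped almost fully. Its change was 0.02 (95% interval -0.20 to 0.23), and it was -0.002 after centring on the autosomal median and -0.13 in the PLIER table. Prosbeta5R1 had the most positive change, 0.10 (95% interval -0.24 to 0.44), and was higher in mle/mle in all 3 pairs, by 0.16, 0.06 and 0.08. Prosbeta4R1, which has 1 coding gene between itself and Prosbeta4R2 on chromosome arm 2L, changed by -0.17 (95% interval -0.43 to 0.10).

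Of the 39 genes 5 lie on X, the chromosome that maleless acts on in males. The X-linked core and cap genes are Prosalpha4, Rpt3 and Rpt4, with changes of -0.13, -0.17 and -0.15 and a median of -0.15. The 23 autosomal core and cap genes had a median of -0.05. Over all genes the medians were -0.02 on X and 0.01 on the autosome arms. Prosalpha4, an alpha ring subunit, read 9.63, 9.31 and 9.81 on wild type arrays and 9.32, 9.64 and 9.40 on mle/mle arrays, and the groups overlapped (95% interval of the change -0.45 to 0.19). Several autosomal members had changes of similar size, among them Prosalpha5 on 2R at -0.13 and Prosbeta5 on 2R at -0.11. The X-linked variants Rpn13R and Prosbeta2R1 changed by -0.01 and 0.02. Rpn13R read 6.18, 6.23 and 6.05 on wild type arrays and 6.17, 6.13 and 6.14 on mle/mle arrays. The difference between X-linked and autosomal members was not tested.

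Other probe sets of the family did not all vary as the brightest ones did. The probe set shared by Prosalpha1 and Prosalpha1R read 10.64, 10.22 and 10.67 on wild type arrays and 10.67, 10.85 and 10.55 on mle/mle arrays. It was low and high on the same arrays as the core genes, and its change was 0.18 (95% interval -0.13 to 0.49). The dimmer probe set of Prosalpha7 read 5.71, 5.91 and 5.53 on wild type arrays and 5.70, 5.71 and 5.55 on mle/mle arrays, and that of Prosbeta6 read 6.74, 6.88 and 6.58 and then 6.60, 6.85 and 6.50. In both of these the wild type array numbered 2 was the highest of its group, the opposite of the brighter probe set of the same gene. The mle/mle array numbered 2 was the highest of its group too, as in the brighter probe sets. The changes of these dimmer probe sets were -0.06 and -0.08. That of Prosalpha7 lay under the lower quartile on 5 of 6 arrays, so it says little about the transcript.

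The genes that make, steer and supply the proteasome did not pass the test either. Of 24 listed genes of the ubiquitin and proteasome pathway 20 were measured, of which 9 had a negative and 11 a positive change, with a median of 0.03. By limma 0 of 20 had an adjusted p or an unadjusted p under 0.05. The array numbered 2 was the lowest in wild type for 16 of 20, against 41.6% of all genes. It was the highest in mle/mle for 10 of 20, against 47.5% of all genes. Both held together for 9 of 20, against 16.4% of all genes.

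Pomp, the chaperone that matures the core particle, read 8.92, 8.33 and 8.79 on wild type arrays and 8.48, 8.74 and 8.45 on mle/mle arrays. It was low on wild type array 2 and high on mle/mle array 2, like the subunits. The change was -0.12 (95% interval -0.48 to 0.23), or -0.39 without the arrays numbered 2 (SE 0.08, limma adjusted p = 0.040). In pair 2 Pomp was higher in mle/mle by 0.40, so the limit given above for leaving out these arrays holds here too. TER94, the segregase that pulls ubiquitinated proteins from their partners, read 11.05, 10.72 and 11.21 on wild type arrays and 10.87, 11.07 and 10.89 on mle/mle arrays, a change of -0.05. REG, an activator that binds the end of the core particle in place of the cap, changed by -0.02 (95% interval -0.27 to 0.24).

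The transcription factor gene cnc, whose product raises proteasome genes under stress, read 6.91, 7.07 and 6.87 on wild type arrays and 6.97, 7.06 and 7.12 on mle/mle arrays. This probe set, the brightest of 4 for cnc, was highest on wild type array 2, where the subunits were lowest. Its change was 0.10 (95% interval -0.09 to 0.29), and the mean over the 4 probe sets changed by 0.05. The cnc partner maf-S changed by 0.06 and the cnc inhibitor Keap1, under the lower quartile of all 6 arrays, by 0.06. Ubi-p63E, which encodes a chain of ubiquitin units, read 11.85, 11.71 and 11.87 on wild type arrays and 11.90, 11.81 and 12.03 on mle/mle arrays, a change of 0.10 (95% interval -0.09 to 0.30). Within both groups it was lowest on the array numbered 2, unlike the core and cap genes.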

How the data were processed

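The authors deposited log2 signals per probe set, which the submitters' processing notes credit to RMA, and a second table of log2 PLIER signals. Its offset is 16, per the file headers. Versions and settings of both are not given in the sources used here. PLIER columns show the group but no replicate number. Of 14010 probe sets 44 controls were left out and 13966 tested. Symbols were updated by Entrez ID through the RefSeq gene table (Release 6 plus ISO1 MT), used for names, chromosome arms and neighbours. The brightest probe set over 6 arrays stood for a gene.

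A two-sided limma test (version 3.58.1, lmFit and eBayes, under R 4.3.3) compared the groups. P-values were adjusted by Benjamini-Hochberg over the 13966 probe sets, and a gene was called where the adjusted p was below 0.05. The fit was tested on simulated data with independent noise for each probe set. That test therefore does not cover offsets that many genes share on an array. Array number limits the precision. The limma test between the groups used no pairing. Deviations from the group means correlated at 0.17, 0.28 and 0.52 between same-numbered arrays over probe sets. Between arrays of unlike numbers the correlations ran from -0.41 to 0.01. Deviations within a group sum to 0, so these correlations are not independent of each other. The numbers in the titles were used to pair samples, but only in the pair differences and the replicate block. In the core and cap genes the offsets of the arrays numbered 2 had opposite signs, with medians of -0.31 in wild type and 0.28 in mle/mle. What a shared number stands for is not stated.

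Every member could be named. Values per array were given for the 5 core or cap genes of smallest p, the brightest such gene, the 3 brightest variants, members on X and fixed pathway genes. Prosbeta4, Prosbeta5, Rpt3R, Prosbeta4R2, Prosalpha6T, the other probe sets and the marker examples were added after their values were seen. Members, lists and alternatives were chosen with earlier results of these data known.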

Additional observations from a re-analysis of the deposited data

How the results depend on the processing

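No proteasome gene was called with all arrays under RMA, quantile normalization, centring, the dim filter (which kept 31 of 39), the replicate block, a trended and robust variance model, means over probe sets, the PLIER table with or without its array code as a block, its code of 4 arrays, or without any 1 array. Without replicate 2 of both groups 3 were called, and Pomp of the pathway. Those arrays were set apart partly for how the proteasome genes read on them, so these calls are no independent test. The count of all called probe sets was 8. It was 4 with PLIER, 1 with PLIER and the code as a block, 453 when the arrays numbered 2 were left out, 0 in the code of 4 arrays (399 there at an unadjusted p under 0.05 by limma), and 0 to 145 when 1 array was left out (355 to 1095 at an unadjusted p under 0.05), 145 being without mle/mle replicate 2. The replicate block called 6 probe sets and 0 members, and it changed no call of a member. The median change was -0.06 for core genes and -0.05 for cap genes. Quantile normalization gave -0.12 and -0.09, with 26 of 26 negative, and the PLIER table gave -0.13 for variants against -0.07 in the RMA values. It was -0.23 for cap genes without replicate 2 of both groups, and -0.31 and -0.27 in the PLIER code of 2 arrays. Without 1 array the medians ran from -0.16 to -0.001 for core genes, -0.14 to 0.003 for cap genes and -0.11 to 0.004 for variants, nearest 0 for core and cap genes without wild type replicate 3. The cause of these shifts was not tested.

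Signs turned for uncalled genes as follows, in log2 change. Quantile normalization gave Prosbeta4 -0.011, and centring gave Prosalpha4T2 -0.0017. The PLIER table, alike with the code as a block, gave Rpn1 0.020, Rpn13 0.076, Rpn3 0.00072, Rpn6 0.0034, Rpn12R 0.037, Prosalpha4T2 -0.13 and Prosalpha6T 0.022. Leaving out the arrays numbered 2 gave Prosbeta4 -0.17, Rpn13R 0.037, Keap1 -0.057 and maf-S -0.063. The PLIER code of 4 arrays gave Prosalpha2 0.058, Prosalpha3 0.018, Prosalpha4 0.033, Prosalpha5 0.0045, Prosalpha7 0.13, Prosbeta2 0.036, Prosbeta3 0.058, Prosbeta5 0.036, Prosbeta7 0.028, Rpn1 0.086, Rpn11 0.083, Rpn13 0.17, Rpn2 0.026, Rpn3 0.19, Rpn5 0.069, Rpn6 0.082, Rpn7 0.10, Rpn8 0.082, Rpt2 0.11, Rpt5 0.023, Rpn12R 0.012, Prosalpha4T2 -0.19, Prosalpha6T 0.022, Prosbeta2R1 -0.038 and TER94 0.084. The code of 2 arrays gave Prosbeta4 -0.20, Rpn12R 0.086, Rpn13R 0.018, Prosalpha4T2 -0.021, Prosalpha6T 0.023, Keap1 -0.20 and maf-S -0.18. With 1 array left out at a time, changes crossed 0 for Prosalpha2 (-0.14 to 0.029), Prosalpha6 (-0.15 to 0.030), Prosalpha7 (-0.12 to 0.069), Prosbeta2 (-0.12 to 0.037), Prosbeta3 (-0.12 to 0.025), Prosbeta4 (-0.053 to 0.15), Prosbeta6 (-0.17 to 0.021), Rpn1 (-0.072 to 0.053), Rpn11 (-0.15 to 0.021), Rpn12 (-0.24 to 0.022), Rpn13 (-0.13 to 0.037), Rpn2 (-0.12 to 0.010), Rpn3 (-0.17 to 0.14), Rpn6 (-0.14 to 0.093), Rpn8 (-0.16 to 0.027), Rpt2 (-0.14 to 0.066), Rpt5 (-0.17 to 0.010), Rpn12R (-0.11 to 0.076), Rpn13R (-0.061 to 0.027), Prosalpha4T1 (-0.26 to 0.016), Prosalpha4T2 (-0.026 to 0.10), Prosalpha6T (-0.19 to 0.11), Prosbeta4R2 (-0.36 to 0.11), Prosbeta5R1 (-0.022 to 0.24), Keap1 (-0.019 to 0.15), REG (-0.12 to 0.083), TER94 (-0.19 to 0.055) and maf-S (-0.029 to 0.14). The cause was not tested.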
